A study of Mus musculus with 22 samples.

Results

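Liver mRNA of mice that lack the glucagon gene (Gcg KO) and received glucagon at 30 µg/d was compared with that of wild-type (WT) mice given the same dose, over all genes. The members are the 8 of 22 libraries whose titles give this dose, 4 from Gcg KO liver (libraries 11 to 14) and 4 from WT liver (libraries 7 to 10), named by the running number in their titles. The other libraries are 3 from Gcg KO and 3 from WT liver without infusion, and 4 from Gcg KO and 4 from WT liver at 150 µg/d. Both groups compared here carry the infused hormone, and the WT livers also have an intact Gcg gene. The labels name no allele, strain, sex, age, or length or route of infusion, nor whether the libraries come from different mice. The p-values therefore refer to the spread among the libraries, which may be technical. The series as a whole concerns glucagon and liver zonation, meaning that hepatocytes at the portal end and at the central end of a liver lobule run different metabolic programmes.

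Glucagon is a pancreatic hormone that binds the receptor Gcgr on hepatocytes and raises cyclic AMP, which activates protein kinase A and the transcription factor CREB. In liver it is known for raising glucose output and amino acid breakdown, and for lowering glycolysis and glycogen storage. Gcg encodes proglucagon, the precursor of glucagon and also of the GLP peptides made in the gut.

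Expression is given in RPKM, a read count divided by transcript length and library size, so levels may be compared between genes. A fold change is a difference of mean log2(RPKM + 1), Gcg KO minus WT, with limma's standard error (SE), and it understates changes of genes near 1 RPKM or less. Genes counted as called had a Benjamini-Hochberg adjusted p under 0.05 over 11590 tested genes. Estimated depth was 11.12 to 13.68 M reads in the Gcg KO libraries and 12.02 to 13.78 M in the WT libraries, and Spearman's rank correlation between replicates, across genes, was 0.963 to 0.986 in Gcg KO liver and 0.969 to 0.981 in WT liver. Gcg itself, a gene of pancreas and gut, was listed at 0 in all 8 libraries and so does not check the genotype. The receptor gene Gcgr stood at 79.8 ± 7.55 RPKM in Gcg KO liver and 84.2 ± 1.8 RPKM in WT liver (SD, n = 4 each; log2 change -0.08, adjusted p = 0.79). The hepatocyte markers Alb, Apoa1, Ttr and Hnf4a were abundant in all 8 libraries. Of 10 pancreas markers 5 were listed at 0 in all 8, Prss1 and Ins2 among them, and the 2 that were tested, Cela1 and Cela2a, had library means of 1.482 to 2.809 in Gcg KO liver and 2.052 to 2.43 in WT liver on the log2 scale. Of 6 adipocyte markers Lep was listed at 0, and Adipoq and Plin1 were too low to be tested. Adipoq had 0 to 0.0721 RPKM in Gcg KO liver and 0 to 0.174 RPKM in WT liver. Plin1 had 0 to 0.123 and 0 to 0.193 RPKM in the same order of genotypes. The 3 that were tested, Cfd, Car3 and Fabp4, had means of 4.868 to 5.168 in Gcg KO liver and 4.502 to 4.795 in WT liver on the log2 scale. One Gcg KO library, number 13, stood apart: its mean over male-biased liver genes was 5.424 on the log2 scale, against 8.491 to 9.005 in the other Gcg KO libraries and 7.116 to 8.609 in the WT libraries. The count of called genes and the gene lists are therefore also given without it.

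Few genes separated the genotypes at this dose. The test called 38 genes (0.328% of those tested), of which 13 rose in Gcg KO liver (0.112%) and 25 fell (0.216%). A 2-fold change or more was reached by 4 risers and 9 fallers. The strongest falls were those of the asparagine synthetase gene Asns, the imprinted noncoding RNA Meg3, the membrane receptor gene Mmd2 and the ornithine aminotransferase gene Oat, and the largest rises were those of Pcp4l1, Map3k13, Baiap2 and Atxn1. In 37 of the 38 the libraries of the 2 genotypes did not overlap, as was true of 733 genes (6.32%) overall. The 38 were called from these same libraries, which favours such separation in advance, so it adds no support to the calls. At an unadjusted p under 0.05 stood 1383 genes (11.9%), and the median log2 change of all genes was -0.000126. The count was 30 without library 13, 15 of them higher. Single omissions of the other 7 libraries gave 9 calls (without library 12) to 45 (without library 9). Counts of 11, 24, 12, 13 and 19 were reached without libraries 7, 8, 10, 11 and 14. The called set also changed: of the 38 genes, 18 were among the 30 without library 13 and 20 among the 45 without library 9. Rescaling by median of ratios gave 32 calls with 18.8% of them higher, and quantile normalization 27 with 22.2% higher, against 34.2% as reported. In each of the 8 fits that left out 1 of these libraries, 8 genes were called: Asns, Atxn1, Bhlhe41, Meg3, Mmd2, Robo1, Srsf5 and Zap70. When the fit used these 8 libraries alone, Asns, Robo1, Bhlhe41 and Srsf5 missed the threshold (adjusted p = 0.116, 0.0608, 0.0547 and 0.0835).

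The signalling and membrane genes Zap70, Robo1 and Mmd2 were lower in Gcg KO liver by wide margins. Zap70, a kinase best known from T-cell receptor signalling, had 0.992, 2.2, 1.07 and 1.82 RPKM in Gcg KO libraries 11 to 14, in that order here and below. WT libraries 7 to 10 had, also in order, 5.7, 6.75, 4.48 and 5.17 RPKM. All Gcg KO values lay below the lowest WT value, and Zap70 fell by 1.39 on the log2 scale (SE 0.19; limma, adjusted p = 0.00529). T-cell genes were near the detection floor in the same libraries: Cd3e had 0.124 to 0.445 RPKM in Gcg KO liver and 0.113 to 0.631 RPKM in WT liver, and Cd8a 0.117 to 0.297 RPKM and 0.209 to 0.319 RPKM in the same order of genotypes. Robo1, a receptor for Slit guidance proteins, had 0.516, 0.401, 0.657 and 0.363 RPKM in Gcg KO liver, against 2.91, 1.68, 1.36 and 1.97 RPKM in WT liver. Robo1 fell by 0.98 (SE 0.15; adjusted p = 0.00555), with no overlap between the groups. Mmd2, of the progestin and adipoQ receptor family, had 0.0827, 0, 0.168 and 0.249 RPKM in Gcg KO liver and 4.52, 1.92, 3.79 and 2.84 RPKM in WT liver. Since 1 read on a transcript of 1 kb is worth 0.073 to 0.09 RPKM here, the Gcg KO values of Mmd2 are near those of single reads, and the fitted fall of 1.89 (SE 0.29; adjusted p = 0.00555) depends on the added 1 RPKM.

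Noncoding RNAs were also among the falls. Meg3, a long noncoding RNA of the imprinted Dlk1-Dio3 domain (chr12:109540996-109571729, GRCm38), had 0.524, 1.14, 0.299 and 0.969 RPKM in Gcg KO liver and 5.05, 9.34, 4.27 and 5.96 RPKM in WT liver. The groups were far apart, and Meg3 fell by 2.03 (SE 0.29; adjusted p = 0.00529). Rian, transcribed from the same domain (chr12:109603945-109661716), had 0.198, 0.0669, 0.0806 and 0.298 RPKM in Gcg KO liver and 1.53, 3.36, 1.23 and 1.64 RPKM in WT liver, a fall of 1.29 (SE 0.22; adjusted p = 0.011). Library 8 held the highest WT level of both RNAs. Without library 12 the call of Rian ended (adjusted p = 0.0601). Ctcflos, an RNA named as the opposite strand of Ctcfl, averaged 0.781 ± 0.355 RPKM in Gcg KO liver and 4 ± 1.21 RPKM in WT liver (adjusted p = 0.0421), and its call held in 1 of the 8 fits that left out a library. Its interval, chr2:173124749-173133204, ends before that of Pck1 begins at position 173153073 of the same chromosome. Pck1, the cytosolic PEP carboxykinase of gluconeogenesis, had 794 to 1685 RPKM in Gcg KO liver and 916 to 1546 RPKM in WT liver, overlapping (adjusted p = 0.858). Whether strand was used in counting is not known, so Ctcflos reads and reads of an overlapping partner may be mixed. Lncbate1, a further noncoding RNA, lay under the level set for naming and was chosen after its values were seen: it averaged 0.146 RPKM in Gcg KO liver and 0.947 RPKM in WT liver (adjusted p = 0.0421; called in 2 of the 8 fits).

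The amino acid enzymes Asns and Oat were among the falls. Asns, which makes asparagine from aspartate and glutamine, had 0.691, 0.704, 1.27 and 0.831 RPKM in Gcg KO liver and 2.75, 16.3, 9.92 and 22.5 RPKM in WT liver. The Gcg KO libraries were uniformly low while the WT libraries were spread widely, library 7 lowest. Asns fell by 2.61 (SE 0.43; adjusted p = 0.00986). Oat, the mitochondrial ornithine aminotransferase that is a pericentral enzyme in mouse liver (chr7:132557475-132576398), had 182, 143, 209.9 and 121 RPKM in Gcg KO liver and 664, 633, 427 and 570.4 RPKM in WT liver. Every Gcg KO library was below every WT library, and Oat fell by 1.81 (SE 0.37; adjusted p = 0.0421). Its call held only in the fits without library 9 or without library 13, and the adjusted p was 0.0806 to 0.12 without each of libraries 7, 8, 10, 11, 12 and 14.

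Bhlhe41, a transcriptional repressor of the circadian clock, had 0.341, 0.705, 0.229 and 1.04 RPKM in Gcg KO liver and 3.35, 2.21, 2.29 and 2.19 RPKM in WT liver, and fell by 1.17 (SE 0.18; adjusted p = 0.00536). Srsf5, a splicing factor, had 117, 126, 113 and 129 RPKM in Gcg KO liver and 197, 179, 159 and 169 RPKM in WT liver. Its fall of 0.53 (SE 0.08; adjusted p = 0.00529) is small, but the values within each group lay close together. Tbcel, a tubulin cofactor E-like gene, fell by 1.04 to 12.6 ± 1.72 RPKM in Gcg KO liver, against 27.1 ± 4.54 RPKM in WT liver (adjusted p = 0.0193). That call ended without library 7, 11 or 12 (adjusted p = 0.0886, 0.0906 and 0.0601). Apol9a averaged 23.9 ± 3.3 RPKM in Gcg KO liver and 48 ± 3.2 RPKM in WT liver (adjusted p = 0.0421), but its near copy Apol9b overlapped between the genotypes (-0.37, adjusted p = 0.375), so reads shared by the copies leave Apol9a uncertain. Smaller falls were called for Rnf152, a lysosomal ubiquitin ligase (-0.76), Sgms2, a sphingomyelin synthase (-0.74), Jade1, a scaffold of the HBO1 acetyltransferase complex (-0.72), Mpeg1, the macrophage pore-forming protein perforin-2 (-0.70), and Ppfibp2, a liprin (-0.60). These 5 and Apol9a kept their calls in at most 2 of the 8 fits that left out a library.

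Among the rises, Atxn1 encodes ataxin-1, a polyglutamine protein that binds the repressor Capicua. It had 5.33, 5.62, 5.04 and 7.07 RPKM in Gcg KO liver and 1.61, 3.12, 2.14 and 2.21 RPKM in WT liver. No libraries overlapped, and Atxn1 rose by 1.06 (SE 0.15; adjusted p = 0.00529). Pcp4l1, a gene similar to the calmodulin-binding Pcp4, had 5.81, 6.69, 4.81 and 5.38 RPKM in Gcg KO liver and 3.16, 1.83, 1.29 and 2 RPKM in WT liver, a rise of 1.15 (SE 0.19; adjusted p = 0.011) that was not called without library 12 (adjusted p = 0.0601). Setd7, a lysine methyltransferase, had 2.93, 2.54, 3.98 and 3.88 RPKM in Gcg KO liver and 1.32, 1.25, 1.7 and 1.28 RPKM in WT liver, a rise of 0.85 (SE 0.14; adjusted p = 0.0121). Setd7 lost its call without library 7 or 10 (adjusted p = 0.0544 and 0.0518).

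The remaining rises were smaller or less stable. Map3k13, a stress kinase, averaged 5.38 ± 1.35 RPKM in Gcg KO liver and 1.98 ± 0.964 RPKM in WT liver (adjusted p = 0.0306), and the Rac and actin adaptor gene Baiap2 14.6 ± 4.3 RPKM in Gcg KO liver and 6.25 ± 2.23 RPKM in WT liver (adjusted p = 0.0421). Ppp1r1b, known in brain as DARPP-32, a phosphatase inhibitor switched on by protein kinase A, had 2.47 to 2.92 RPKM in Gcg KO liver and 0.978 to 1.53 RPKM in WT liver, a rise of 0.68 (adjusted p = 0.0416). Also called were Ablim3, an actin-binding protein (0.81), Rnf144b, a ubiquitin ligase (0.70), Nrp2, a coreceptor for semaphorins and VEGF (0.65), Arhgap10 (0.57), Bbs4, a BBSome subunit of cilia (0.55), and Sh3bp5 (0.39). These 9 genes kept their calls in at most 3 of the 8 fits that left out a library. The called genes outside the naming rule, listed here after their values were seen, were Gm6644, which rose, and Lncbate1, Ccdc90b, Plekhg6, Atxn2, Trim25, Flot1, Bahcc1 and Enpp3, which fell by 0.33 to 0.76.

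**Figure D1:**
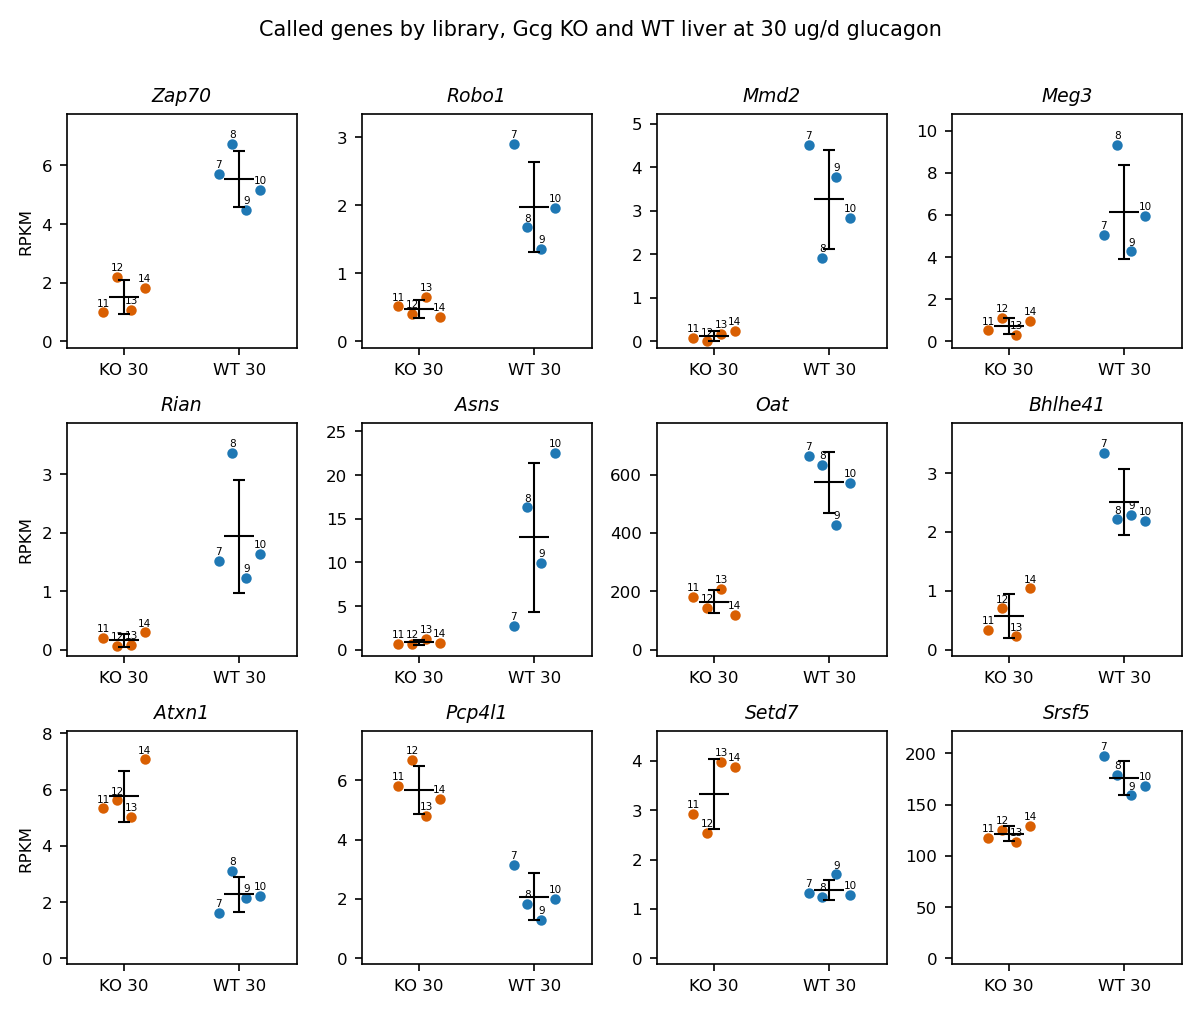
RPKM (linear axes from 0) of 12 called genes in Gcg KO (orange, left) and WT (blue, right) liver at 30 µg/d; each point is a library with its number, the bars are means with SD (n = 4 each). In every panel the 4 Gcg KO points lie on one side of the 4 WT points, below them for 9 genes and above them for Atxn1, Pcp4l1 and Setd7.

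Because cyclic AMP acts on genes through CREB, the promoters of the called genes were read for 4 motifs on both strands, from 250 bases before to 50 after the annotated start (RefSeq, GRCm38.p6). The full cAMP response element TGACGTCA was found for 2 of 30 called genes with a promoter entry (6.67%), against 3.49% of 9236 tested genes and 2.92% of 11791 promoters. These were Meg3 and Zap70, which is why both are printed below, with Asns and Oat as the amino acid enzymes that fell. The element's core TGACG, which overlaps it, occurred for 26.7% of the called genes and 35.4% of tested genes (30.6% of promoters). The core TGATGNAA of the CCAAT-enhancer and ATF composite element occurred for 3 called genes (10%) and 2.67% of tested genes (2.2% of promoters), and the E-box CACGTG for 7 called genes (23.3%) and 12% of tested genes (10.1% of promoters). Sequences run 5′ to 3′ on the gene's strand, and capitals mark these matches. They lie at chr12:109540746-109541045 (+) for Meg3, chr1:36761548-36761847 (+) for Zap70, chr6:7693160-7693459 (−) for Asns and chr7:132576349-132576648 (−) for Oat, and each is the first of the gene's listed promoters.
Meg3: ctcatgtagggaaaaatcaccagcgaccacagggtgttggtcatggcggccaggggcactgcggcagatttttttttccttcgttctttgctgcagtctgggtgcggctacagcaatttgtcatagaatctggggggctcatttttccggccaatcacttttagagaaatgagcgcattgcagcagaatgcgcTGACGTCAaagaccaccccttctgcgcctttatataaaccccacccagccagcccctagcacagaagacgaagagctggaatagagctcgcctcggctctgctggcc
Zap70: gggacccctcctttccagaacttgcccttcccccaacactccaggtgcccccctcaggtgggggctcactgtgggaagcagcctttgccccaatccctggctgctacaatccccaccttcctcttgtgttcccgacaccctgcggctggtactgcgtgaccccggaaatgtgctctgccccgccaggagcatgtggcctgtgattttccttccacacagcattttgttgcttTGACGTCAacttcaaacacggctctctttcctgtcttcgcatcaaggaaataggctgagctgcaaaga
Asns: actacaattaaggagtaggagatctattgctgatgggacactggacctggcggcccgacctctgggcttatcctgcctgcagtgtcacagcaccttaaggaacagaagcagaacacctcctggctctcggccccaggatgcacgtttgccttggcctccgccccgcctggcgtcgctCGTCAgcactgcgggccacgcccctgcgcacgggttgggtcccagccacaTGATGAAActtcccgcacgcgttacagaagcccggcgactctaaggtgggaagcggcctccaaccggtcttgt
Oat: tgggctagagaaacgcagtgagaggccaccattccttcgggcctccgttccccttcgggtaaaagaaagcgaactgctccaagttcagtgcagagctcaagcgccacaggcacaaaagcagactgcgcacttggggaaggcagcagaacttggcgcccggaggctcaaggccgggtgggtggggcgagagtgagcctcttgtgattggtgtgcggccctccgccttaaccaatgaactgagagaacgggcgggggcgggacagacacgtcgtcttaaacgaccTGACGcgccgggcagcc
In Meg3 and Zap70 the capitals are the full element, in Asns the TGACG core read on the other strand (CGTCA) and the composite core, and in Oat the TGACG core. A match describes the letters in this window and is not a measured binding site.

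The genotype difference at 30 µg/d was then set beside those without infusion and at 150 µg/d, which use other libraries. Among the uninfused Gcg KO libraries number 4 stood apart, as library 13 did at 30 µg/d. Its mean over male-biased genes was 4.15 on the log2 scale, against 7.92 and 8.741 in libraries 5 and 6. Its proliferation mean was 2.747, against 1.586 and 1.529. The values without infusion given here include library 4. Without infusion 179 genes were called (1.54%) and at 150 µg/d 3 genes (0.0259%), namely Robo1, Zap70 and Mmd2, which were called at all 3 doses. Of the 38 genes called at 30 µg/d, 12 were also called without infusion (31.6% of the 38 and 6.7% of the 179), among them Oat, Asns, Meg3, Bhlhe41, Ctcflos, Nrp2 and Setd7. Their change had the same sign without infusion in 32 of 38 and at 150 µg/d in 30 of 38. The median absolute log2 change of the 38 was 0.427 without infusion, 0.762 at 30 µg/d, where they were chosen, and 0.128 at 150 µg/d.

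Genes called without infusion had their largest median differences there, which choosing them there favours in advance. The 87 genes lower in Gcg KO liver without infusion had a median log2 change of -0.796 there, -0.262 at 30 µg/d and -0.07 at 150 µg/d, and 74 of them were lower at 30 µg/d. The 92 higher genes had medians of 0.567, 0.156 and 0.0143 at the same doses, and 74 were higher at 30 µg/d. Oat had 68.2 RPKM in Gcg KO liver and 677 RPKM in WT liver without infusion, 164 and 574 RPKM at 30 µg/d, and 708 and 801 RPKM at 150 µg/d. Its log2 change of -3.30, -1.81 and -0.23 at these doses differed between 30 µg/d and no infusion by 1.49 (SE 0.56; limma, adjusted p = 0.454). Zap70 had log2 changes of -1.77, -1.39 and -1.21 at the same doses. Mmd2 stood at 3.75 RPKM in Gcg KO liver and 15 RPKM in WT liver at 150 µg/d, levels in both genotypes above those at 30 µg/d, while its log2 change was -1.97.

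One gene differed in its genotype effect between doses. The test of the difference between 30 µg/d and no infusion called Atxn1 alone (0.00863% of 11590 genes; 1045 genes, or 9.02%, at an unadjusted p under 0.05). Atxn1 averaged 2.10 ± 0.455 RPKM in Gcg KO liver without infusion, 5.77 ± 0.902 RPKM at 30 µg/d and 2.96 ± 0.667 RPKM at 150 µg/d (SD, n = 3, 4 and 4), and in WT liver 3.49 ± 0.719, 2.27 ± 0.625 and 2.88 ± 0.564 RPKM at the same doses. Its log2 change was -0.53 without infusion, 1.06 at 30 µg/d and 0.03 at 150 µg/d, and the first 2 differed by 1.59 (SE 0.23; adjusted p = 0.0167). That difference missed the threshold without library 1, 2, 4, 9 or 14 (adjusted p = 0.0742, 0.11, 0.0991, 0.0539 and 0.0518). The next smallest p values included Ebp, a sterol isomerase of cholesterol synthesis, whose log2 change was -0.81 without infusion and 0.08 at 30 µg/d (adjusted p of the difference 0.157), and the kinase gene Rps6ka1, with 0.60 and -0.39 at the same doses (0.173). Between 150 and 30 µg/d limma called no gene (0%), with 586 (5.06%) at an unadjusted p under 0.05, and weighting the libraries also called none. The smallest p there were those of Bhlhe41, Atxn1, Ppfibp2 and Srsf5 (adjusted p = 0.635, 0.635, 0.635 and 0.768).

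**Figure D2:**
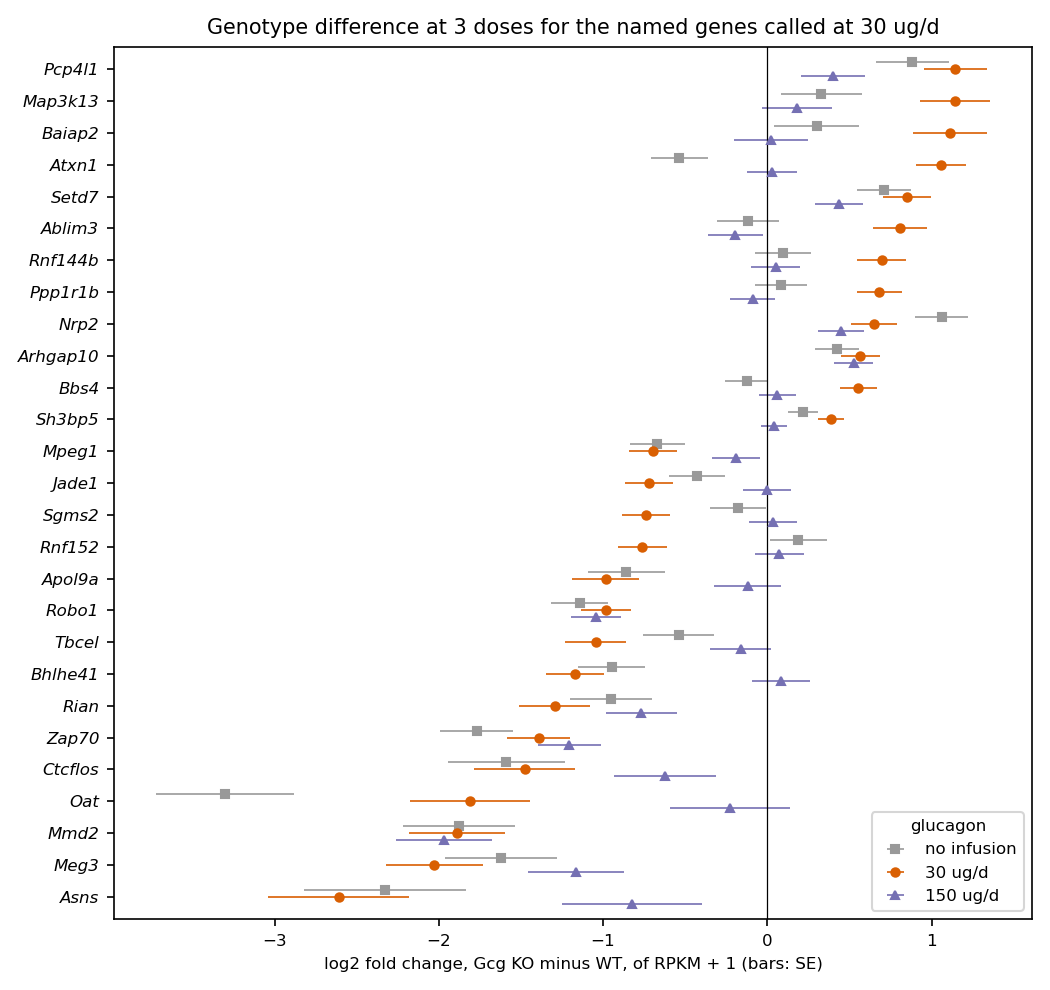
Log2 fold change of RPKM + 1, Gcg KO minus WT, with SE bars, for the 27 named genes called at 30 µg/d (orange circles), beside the change without infusion (grey squares) and at 150 µg/d (violet triangles). Zap70, Robo1 and Mmd2 lie well below 0 at all 3 doses, Oat at -3.30, -1.81 and -0.23 from the lowest dose to the highest, and Atxn1 at -0.53, 1.06 and 0.03.

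Amino acid catabolism held 1 called gene, Oat, among 61 tested, and 4 were lower in Gcg KO liver without overlap, beside 3.51% lower and 2.81% higher over all genes. The list's median log2 change was -0.0506, against -0.4296 without infusion and -0.0278 at 150 µg/d. Gls2, the liver glutaminase, had 49.7, 60.4, 137 and 41.1 RPKM in Gcg KO liver and 181, 153, 131 and 129 RPKM in WT liver. Of the Gcg KO libraries only number 13 reached the WT range, and Gls2 was not called (-1.18, SE 0.37, adjusted p = 0.183). Cbs, which makes cystathionine from homocysteine, had 61.5 to 123 RPKM in Gcg KO liver and 141 to 160.1 RPKM in WT liver without overlap, and was not called (adjusted p = 0.286). Tat, the tyrosine aminotransferase, overlapped at 675 ± 278 RPKM in Gcg KO liver and 647 ± 208 RPKM in WT liver, and so did Sds, the serine dehydratase, at 86.5 ± 57.8 and 111 ± 35.3 RPKM. Nnmt, which methylates nicotinamide, averaged 60.5 RPKM in Gcg KO liver and 108 RPKM in WT liver (-0.83, adjusted p = 0.545), beside -3.27 without infusion. The 8 urea cycle genes had a median of -0.0502 and no call or separated gene. Ass1, argininosuccinate synthase, ranged from 897 to 2223 RPKM in Gcg KO liver, library 13 highest, and from 1427 to 1809 RPKM in WT liver.

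Of 18 amino acid transporter genes 4 were lower and 1 higher in Gcg KO liver with no overlap, beside 3.51% lower and 2.81% higher over all genes, and none was called. With or without overlap, 12 had a negative and 6 a positive difference. The list's library means were 4.421 to 4.579 in Gcg KO liver and 4.723 to 4.938 in WT liver on the log2 scale. Slc25a22, a mitochondrial glutamate carrier, had 25.8, 28.6, 35.9 and 30.6 RPKM in Gcg KO liver and 67.5, 48.5, 52.5 and 60.1 RPKM in WT liver (-0.90, adjusted p = 0.18). Slc7a2, a cationic amino acid transporter, had 26, 75, 95.6 and 54.8 RPKM in Gcg KO liver and 238, 151, 117 and 114 RPKM in WT liver (-1.37, adjusted p = 0.253). The 1 higher gene was Slc43a2, a transporter of large neutral amino acids (0.40, adjusted p = 0.0574), which was called under quantile normalization, with weighted libraries and without libraries 4 and 13 (adjusted p = 0.0472, 0.0209 and 0.0416).

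Glucose-handling genes held no call, but 6 of 19 were separated and higher in Gcg KO liver (2.81% of all genes were), and the list's median was 0.1202. Ppp1r3b, the subunit that brings protein phosphatase 1 to glycogen, had 69.6, 52.1, 70.9 and 62.8 RPKM in Gcg KO liver and 15.5, 35.9, 14.5 and 22.4 RPKM in WT liver. The groups were well apart, with a log2 difference of 1.57 (SE 0.36; adjusted p = 0.0653, and 0.0433 without library 8). Pfkfb1, which sets the level of fructose 2,6-bisphosphate, averaged 15.9 ± 1.6 RPKM in Gcg KO liver and 9.1 ± 2.58 RPKM in WT liver (0.77, adjusted p = 0.0613, and 0.0416 without library 8), and the glycogen branching enzyme gene Gbe1 51.9 ± 5.82 RPKM in Gcg KO liver and 33.6 ± 4.49 RPKM in WT liver (0.62, adjusted p = 0.151). The 16 gluconeogenesis genes held no call and had a median of 0.0466.

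Of 24 genes of the glucagon receptor and cyclic AMP list none was called, and 5 were lower and 1 higher in Gcg KO liver without overlap, beside 3.51% lower and 2.81% higher over all genes. Pde4b, a cyclic AMP phosphodiesterase, had 1.38, 1.65, 3.33 and 1.07 RPKM in Gcg KO liver and 7.4, 3.48, 4.13 and 9.92 RPKM in WT liver (-1.30, adjusted p = 0.143). Nr4a1, a nuclear receptor induced within minutes by cyclic AMP and other stimuli, had 2.37, 2.9, 0.524 and 0.462 RPKM in Gcg KO liver and 19.7, 3.03, 5.35 and 38 RPKM in WT liver (-2.37, adjusted p = 0.277). WT libraries 7 and 10 were the highest in it, and were also the highest in the immediate early list, at 3.538 and 3.684 on the log2 scale, against 1.731 to 2.807 in the Gcg KO libraries and 2.341 to 2.618 in the other WT libraries. Of the 20 immediate early genes 18 were lower in Gcg KO liver, with a median of -0.5477 and no call, beside 0.6179 without infusion. The part of these 2 libraries' high immediate early levels in the differences of the other genes was not tested.

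Both metallothionein genes, which encode metal-binding proteins induced by zinc, glucocorticoids and stress, were lower in Gcg KO liver without being called. Mt1 had 33.1, 36.5, 27.8 and 26.6 RPKM in Gcg KO liver and 713, 84.4, 151 and 379 RPKM in WT liver (-2.94, SE 0.88, adjusted p = 0.161). Mt2 had 10.1, 21.8, 10.6 and 9.88 RPKM in Gcg KO liver and 367, 44.8, 54.7 and 164 RPKM in WT liver (-3.06, SE 1.14, adjusted p = 0.278). Library 12 held the highest Gcg KO level of both genes, and WT libraries 7 and 10, the 2 high in immediate early genes, the highest levels of all. In the lipid lists Plin2, a lipid droplet coat protein, was separated at 118, 67.4, 79.8 and 90.6 RPKM in Gcg KO liver and 192, 157, 149 and 190.0 RPKM in WT liver (-0.96, adjusted p = 0.067). Of the clock genes, 1 of 19 was called, Bhlhe41, and Nr1d1, the clock repressor REV-ERB alpha, averaged 14.4 ± 4.19 RPKM in Gcg KO liver and 32.3 ± 8.84 RPKM in WT liver (-1.11, adjusted p = 0.137).

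**Figure D3:**
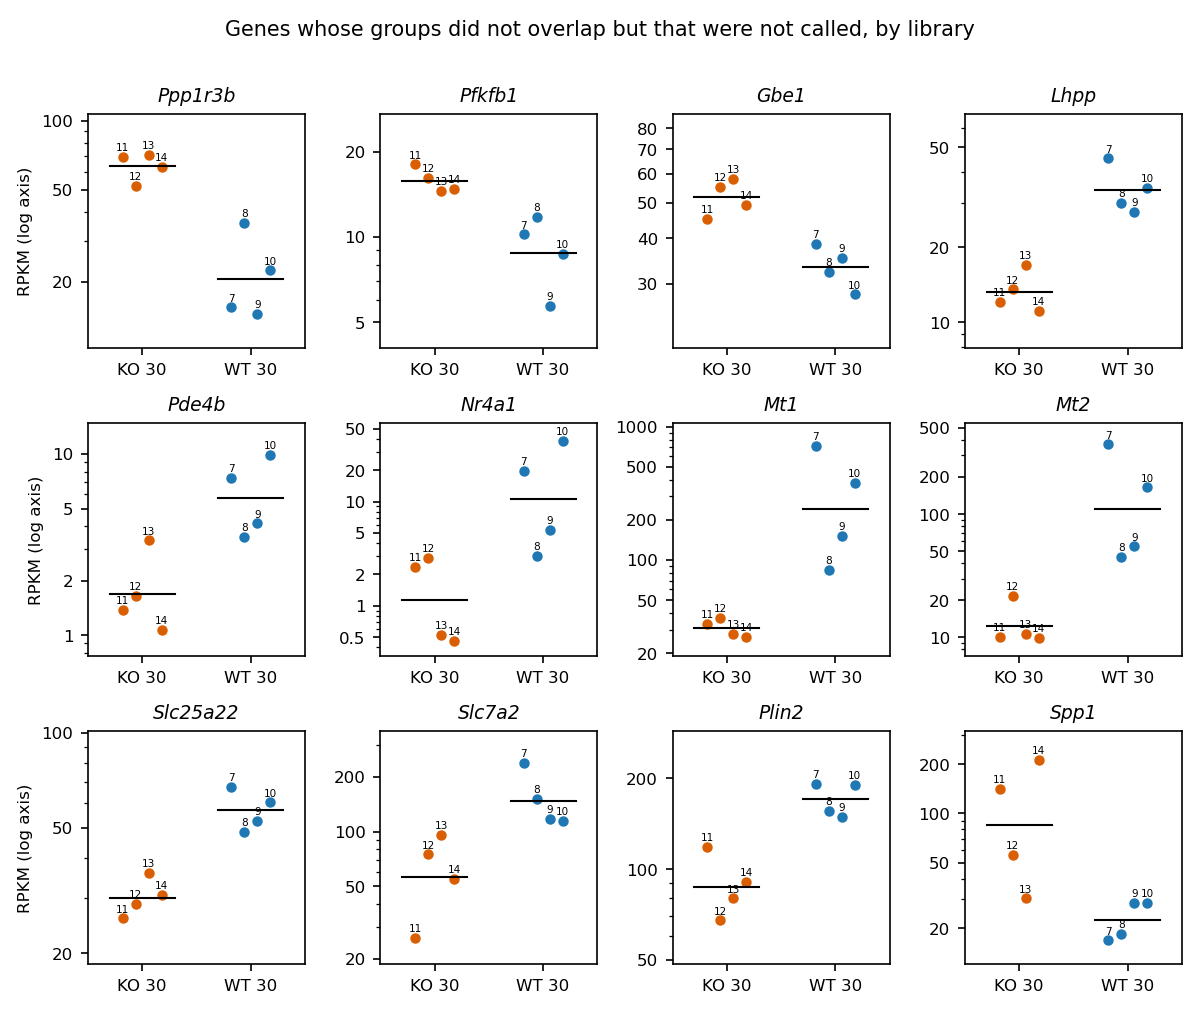
RPKM (log axes) of 12 uncalled genes whose genotypes did not overlap, in Gcg KO (orange, left) and WT (blue, right) liver at 30 µg/d; points are libraries with their numbers and bars are geometric means (n = 4 each). Ppp1r3b, Pfkfb1, Gbe1 and Spp1 are higher in Gcg KO liver, and the WT libraries spread most for Mt1, Mt2 and Nr4a1.

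Most zonation genes overlapped between the genotypes. Of 24 periportal genes none was called and 2 were separated, both higher in Gcg KO liver (median -0.095). Of 28 pericentral genes 1 was called, Oat, and 5 were separated, 4 lower and 1 higher (median -0.0795). Over all genes 3.51% were separated and lower and 2.81% separated and higher. Glul, glutamine synthetase of the central vein's border, had 601, 531, 249.8 and 571 RPKM in Gcg KO liver and 413, 446, 383 and 443 RPKM in WT liver, library 13 lowest (adjusted p = 0.85). Cyp2e1, a pericentral cytochrome, averaged 4649 ± 1006 RPKM in Gcg KO liver and 4564 ± 850.2 RPKM in WT liver, and Cyp2f2, a periportal one, 790.3 ± 67.2 and 769.8 ± 119.7 RPKM. The Wnt target Axin2 had 0.897 to 3.25 RPKM in Gcg KO liver and 1.78 to 2.41 RPKM in WT liver. Among pericentral genes Lhpp, a phosphatase gene that starts at position 132610615 of the chromosome that holds Oat, had 12.1, 13.6, 17 and 11.1 RPKM in Gcg KO liver and 45.1, 30.1, 27.6 and 34.5 RPKM in WT liver (-1.28, adjusted p = 0.0791). Znrf3, which removes Wnt receptors from the cell surface, had 1.65 to 1.83 RPKM in Gcg KO liver and 2.53 to 3.19 RPKM in WT liver (-0.48, adjusted p = 0.0866).

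Markers of other liver cells were compared because bulk RNA cannot tell fewer cells of a type from less RNA per cell. None of 18 endothelial, 14 Kupffer cell and 15 stellate cell and fibroblast genes was called. The stellate and fibroblast list had a median of 0.2619, 14 of 15 genes higher, and library means of 2.62 to 2.931 in Gcg KO liver, against 2.32 to 2.599 in WT liver, on the log2 scale. The endothelial means were 3.153 to 3.369 in Gcg KO liver and 3.001 to 3.278 in WT liver, and the Kupffer cell means 4.122 to 4.325 and 3.581 to 4.666. Mpeg1, a macrophage gene, was among the falls at 17 ± 2.59 RPKM in Gcg KO liver and 28.2 ± 4.03 RPKM in WT liver, while 10 of the 14 Kupffer cell genes had a positive difference. Spp1, osteopontin, a cholangiocyte marker also made by other cells, had 142, 55.9, 30.3 and 212 RPKM in Gcg KO liver and 16.8, 18.4, 28.4 and 28.3 RPKM in WT liver (1.88, adjusted p = 0.168). The other tested cholangiocyte markers, Krt19 and Sox9, both overlapped, each with a log2 difference of 0.20.

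Other lists leaned one way without a called gene. Of 12 apolipoprotein genes 9 were higher in Gcg KO liver and 3 lower (median 0.1096). Their library means were 9.555 to 9.693 in Gcg KO liver and 9.384 to 9.486 in WT liver on the log2 scale. Separated were 3 higher and 1 lower, beside 2.81% higher and 3.51% lower over all genes. Of 21 interferon response genes 19 were lower in Gcg KO liver (median -0.2723), with library means of 2.531 to 2.858 in Gcg KO liver and 2.741 to 3.182 in WT liver on the log2 scale. Of 30 genes of fatty acid oxidation and ketogenesis 25 were lower (median -0.1448). Their library means overlapped, at 5.391 to 5.856 in Gcg KO liver and 5.473 to 6.25 in WT liver. WT libraries 7 and 9 had 6.25 and 5.937, while WT libraries 8 and 10, at 5.484 and 5.473, lay within the Gcg KO range. Of 18 endoplasmic reticulum stress genes 15 were higher in Gcg KO liver (median 0.1574). Their library means also overlapped, at 6.357 to 6.735 in Gcg KO liver and 5.824 to 6.769 in WT liver, WT library 9 highest of all. The chaperone gene Dnajb9, 1 of the 15, had 37.1, 37.8, 43.4 and 51.7 RPKM in Gcg KO liver and 30.4, 21.9, 24.6 and 15.5 RPKM in WT liver (0.88, adjusted p = 0.167). Of 16 proliferation genes 15 were higher, but library 13 alone had a mean of 2.546, against 1.297 to 1.485 in the other Gcg KO libraries and 1.374 to 1.45 in the WT libraries. The acute phase list was highest in WT library 10, at 8.978, where the serum amyloid gene Saa1 reached 4547 RPKM, and its means were 7.128 to 7.86 in Gcg KO liver and 7.34 to 7.742 in the other WT libraries.

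Leaving out library 13, a choice made for the lists after seeing the data, moved several of these list values, and with 3 Gcg KO libraries more genes of any kind were separated: 685 of 11590 were lower in Gcg KO liver without overlap (5.91%) and 661 higher (5.7%). Separated and lower were then 10 of 61 amino acid catabolism genes (median -0.08527), 6 of 18 amino acid transporters, 2 of 8 urea cycle genes, 5 of 24 periportal and 5 of 28 pericentral genes. Separated and higher were 7 of 19 glucose-handling genes, 6 of 18 endothelial genes and 5 of 15 stellate cell and fibroblast genes. The median of the pericentral list became 0.01362 and that of the gluconeogenesis list -0.01623, both of the opposite sign to the values with all libraries. The male-biased list, in which library 13 stood apart, changed sign more widely. Its median went from -0.2047, with 18 of 24 genes lower, to 0.4881, with 17 higher. Of these 24 genes 4 were then separated and higher (16.7%). The median of the female-biased list went from 0.0386 to -0.1997. Of 16 proliferation genes 5 were then higher (median -0.0419), of 21 interferon response genes all were lower, and of 20 immediate early genes 17 were. Of the 38 called genes 13 were higher and 25 lower, as with all libraries, and 32 had the same sign without infusion and 30 at 150 µg/d. These genes were chosen in a fit that held the same libraries, so their signs could hardly change. Of the 38, 18 stayed called without library 13.

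**Figure D4:**
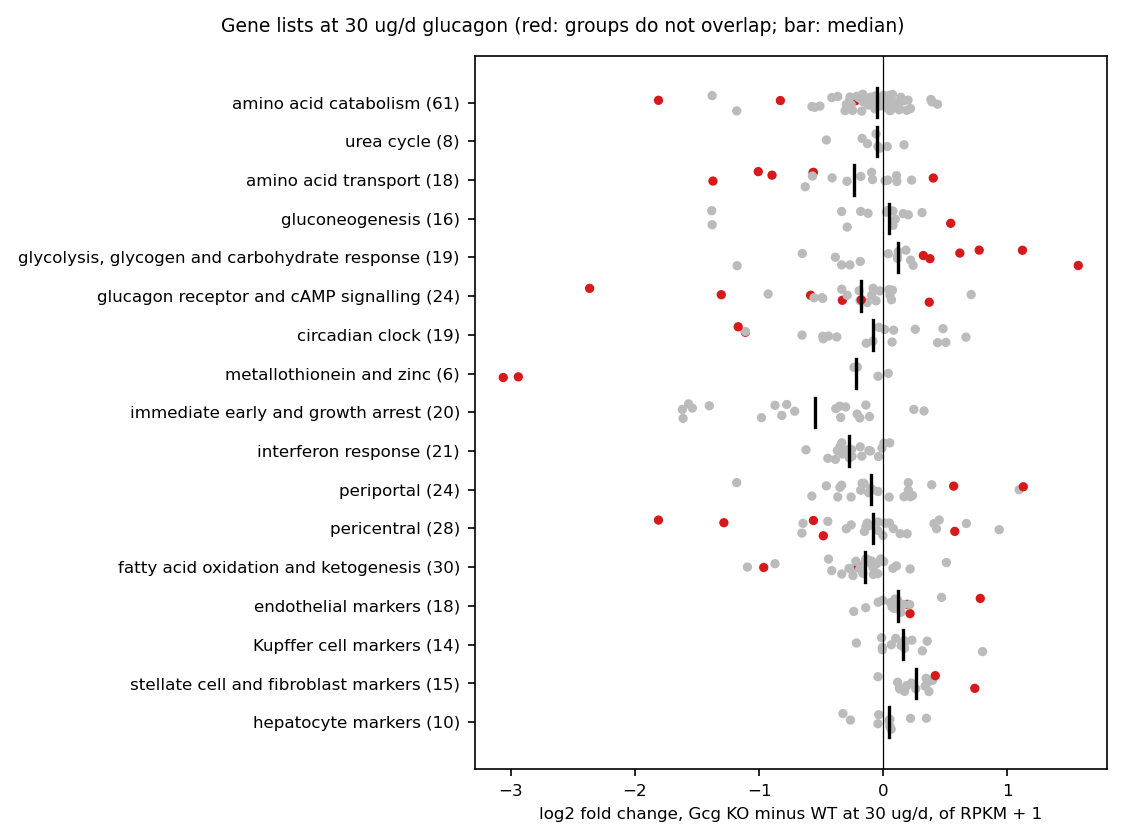
Log2 fold change of RPKM + 1, Gcg KO minus WT at 30 µg/d, for the tested members of 17 gene lists, with the number of members after each name. Points are genes, red where the genotypes do not overlap, and black bars are list medians, which run from -0.5477 (immediate early) to 0.2619 (stellate cell and fibroblast).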

How the data were processed

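PolyA RNA from flash-frozen liver was made into strand-specific libraries, per the labels' protocols. CASAVA 1.8.2, FastQC and the build GRCm38 appear in the submitters' processing notes. Which aligner, counter and annotation were used, and whether counting used strand, is not given in the sources used here. The authors deposited RPKM values for 24475 genes, 1 column per library, without pooling, and 5599 genes are at 0 throughout. Read totals were estimated from the steps between low values of 3984 genes with 1 transcript; 67.5 to 71.2% of these values came out whole within 0.1 read (20% by chance), too few for a count test.

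The model, by limma 3.58.1 (R 4.3.3), took log2(RPKM + 1) of all 6 groups, with a mean-variance trend and no covariate (16 residual degrees of freedom), for the 11590 genes whose mean RPKM reached 0.5, with Benjamini-Hochberg adjustment. Other pseudocounts, filters, scalings, library weights, the 8 libraries alone, and omission of libraries were tried; the fit was tested on simulated data. Named genes were up to 15 rises and 15 falls among called genes of at least 1 RPKM in the higher group with an ordinary symbol, up to 4 members per list by smallest p, the 4 smallest p of each test between doses, and fixed landmarks; not all are printed, and the values of 1 gene are left out. The members, gene lists and tests were chosen with earlier results of these data known. RefSeq matched 24375 identifiers and gave positions and promoters.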

Additional observations from a re-analysis of the deposited data

Results flagged for a closer look

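Of 160 groups of 4 libraries examined for the genes named, 10 held a value farther from its neighbours than Dixon's test allows, where chance gives about 1 in 20. In Gcg KO liver the high values were Pck1 at 1684.78 RPKM in library 12 (next 885.392), Txnip at 55.6657 RPKM in library 11 (next 22.5916) and Mt2 at 21.8102 RPKM in library 12 (next 10.6327). The low values there were Apol9a at 18.9958 RPKM in library 12, Arhgap10 at 1.2577 RPKM and Znrf3 at 1.6482 RPKM in library 13, and Gpr182 at 12.7422 RPKM in library 14. In WT liver the high values were Bhlhe41 at 3.3467 RPKM and Jade1 at 13.8203 RPKM in library 7, and Setd7 at 1.6965 RPKM in library 9. Atxn1 was singled out by the test of its genotype effect between doses, the log2 change at 30 µg/d exceeding that of uninfused livers by 1.593.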

How the results depend on the processing

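No paired analysis was possible because each library has its own running number and no number occurs in both genotypes. The 38 calls at 30 µg/d became 14 with no filter on low values, 12 in a fit of the 8 libraries alone and 86 with weighted libraries. Of the 38 genes, 12 were among the 14, 9 among the 12, and all 38 among the 86. When a library was left out there were 9 to 45 calls. Without libraries 4 and 13, whose means over male-biased genes were the lowest of the 22, there were 45 calls, of which 51.1% were higher. That choice was made after seeing the data, and 21 of the 45 were among the 38. The 1 call for the difference between 30 µg/d and no infusion became 2 with no filter, 11 with weighted libraries, 0 without libraries 4 and 13, and 0 to 3 when a library was left out; for 150 against 30 µg/d the count was 0 throughout. Over the genes named, direction held in all but 15 of 1561 refits, which include those of Atxn1 between doses. A call was lost in 205, which could happen only to results called as reported. A call was gained in 12, among them Lhpp, Plin2 and Gls2 with weighted libraries (adjusted p = 0.0124, 0.0229 and 0.0453). Genes with log2 differences near 0 changed sign: Cyp2e1 (-0.00512 with values rescaled to one sum), Tat (-0.00133 with weighted libraries) and Axin2 (0.058 without libraries 4 and 13). With a library left out, Cyp2e1 ran from -0.0754 to 0.19, Tat from -0.23 to 0.23, Cyp2f2 from -0.0595 to 0.13, Rgs16 from -0.30 to 1.58 and Axin2 from -0.33 to 0.058. Meg3, Mmd2, Zap70 and Atxn1 were called under all 19 alternatives. The causes of these shifts were not tested. Depth limits genes under about 0.5 RPKM, and the depth is itself an estimate.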
